A study of Mus musculus with 16 samples.

Results

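Under interferon alpha, Jak2VF and wild-type (WT) stem-cell-enriched blood cells were compared on 8 Illumina bead arrays of the 16 in the series. The arrays were chosen by their labels alone. The comparison set 4 Jak2VF interferon arrays against 4 WT interferon arrays across 9680 genes that were detected above background. The 8 vehicle arrays, 4 of each genotype, served to estimate the spread and to give the same genotype comparison without interferon.

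The Jak2VF cells came from knock-in mice bearing an activated form of Jak2 and carried the CD45.2 form of CD45, the leukocyte surface phosphatase encoded by Ptprc. The WT cells carried CD45.1. The background strain is given as C57B16, which presumably means C57BL/6. Both groups compared had received 10000 units of interferon alpha per day for 4 weeks, and the vehicle groups a vehicle control. The sources used here do not say whether each array held the cells of 1 animal or of several, nor whether both genotypes came from the same animals, so p-values measure the spread between these arrays, which may be technical in part. Because the genotypes differ in the CD45 form as well as in Jak2, effects of the Jak2 mutation and of DNA linked to the CD45 form cannot be told apart by this design.

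Jak2 is the kinase that carries signals from cytokine receptors such as the erythropoietin receptor into the cell. Its activating mutation causes polycythaemia vera, a blood cancer that starts in the stem cell and overproduces red cells. Interferon alpha signals through related kinases, induces antiviral and antigen-presentation genes and can drive resting stem cells into division. The study asks how interferon acts on the mutant stem cells, and the comparison described here asks how treated mutant cells differed from treated normal cells.

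With interferon, Jak2VF cells stood higher than WT cells in red-cell genes, ribosome assembly genes and iron genes, and lower in platelet, stem cell and MHC class II genes. Ermap, a red-cell surface protein gene, was 10.2-fold higher, and Ank1, the ankyrin of the red-cell skeleton, was 8.29-fold higher. Selp, which encodes P-selectin of platelets, was 4.31-fold lower, Itga2b, the platelet integrin gene, was 3.37-fold lower, and Cd74, which escorts MHC class II molecules, was 3.30-fold lower. A gene was called where its Benjamini-Hochberg adjusted p in limma was under 0.05. Of the 9680 genes 1717 were called (17.7%), 738 higher (7.62%) and 979 lower (10.1%), and 2842 had an unadjusted p under 0.05. The median log2 difference was 0.65 among genes called higher, −0.81 among those called lower and 0.01 over all genes. At a log2 difference of 1 or more there were 146 higher and 332 lower genes, and at 2 or more 23 higher and 9 lower.

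The 4 Jak2VF arrays and the 4 WT arrays did not overlap for 2704 genes (27.9%), 1593 of which were called. The first principal component of the 8 arrays held 54.8% of the variance and set the genotypes apart, with Jak2VF arrays from −39.6 to −16.1 and WT arrays from 15.6 to 46.2. Mean intensity, which shows how bright an array was, ran from 602 to 1130 on the Jak2VF arrays and from 294 to 1009 on the WT arrays, a log2 difference of 0.47 (exact two-sided permutation p = 0.371, where 4 against 4 cannot go below 0.0286). WT interferon replicate 2 was the dimmest at 294. The number of arrays limits the precision, and the median standard error of a log2 difference was 0.21.

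Each slide held 2 arrays of every group. With 2 arrays a group, limma called 70 genes within slide 1 and 5 within slide 2, where 1639 and 1531 had an unadjusted p under 0.05. Without Jak2VF interferon replicate 4 the count fell to 1044 (446 higher, 598 lower), and 991 of the 1717 were called in each of the 8 omissions of an interferon array. Centring each array on the median of all probes, in place of quantile normalization, moved the counts further than the omission of any single array. It raised the median difference of all genes to 0.33 and left 86 genes higher and 8 lower (1382 at an unadjusted p under 0.05), while centring on the probes detected on all 16 arrays, chosen after seeing the data, put it at −0.16 and gave 825 higher and 1373 lower. Of the 124 called genes chosen for naming, 29 kept their call under centring on all probes. Among those named in the text these are Ptpn7, Sphk1, Slc38a5, Eraf, Ermap, Crip2, Ank1, Mt2, Rhag, Col5a1, Spire1, Paqr9, Tlcd4, Cpox, Cx3cr1, Slc40a1, Zbtb46, Ccne1, Ndufab1, Pklr, Tfrc, Mt1, Sfrp4, Abcg4, Rhd and Minpp1, all higher, and Ctse, Ndn and Sult1a1, all lower.

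**Figure D1:**
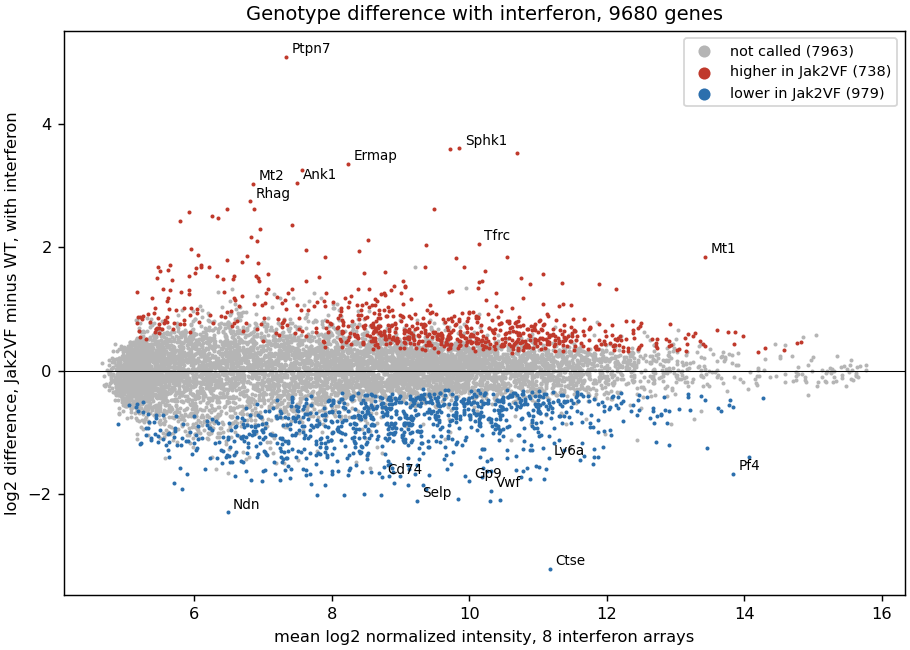
Mean log2 normalized intensity of the 8 interferon arrays (x axis) against the log2 difference, Jak2VF minus WT (y axis), for 9680 genes. Red points are the 738 genes called higher and blue points the 979 called lower, and named points include Ptpn7 at 5.09 and Ctse at −3.21.

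The cell identity given by the labels was checked against marker genes. Of 9 stem and progenitor markers on the arrays 7 were detected on all 8 arrays, while Procr was detected on 0 Jak2VF and 3 WT arrays and Hlf on 0 and 1. The 3 megakaryocyte markers Pf4, Itga2b and Gp9 were detected on every array, and their summed level lay between log2 12.5 and 14.0 on the Jak2VF arrays and between 14.7 and 15.2 on the WT arrays. Stem and progenitor markers summed to 12.8 to 13.7 on the Jak2VF arrays and 14.3 to 14.5 on the WT arrays, and granulocyte markers to 12.3 to 12.6 and 13.2 to 13.9. The brightest members weigh most in such sums. Granulocyte means on Jak2VF and WT arrays were 11.88 and 12.99 for Mpo and 10.04 and 11.16 for Elane. S100a8 (9.41 and 9.50), S100a9 (8.01 and 7.93) and Ltf (5.52 and 5.65) differed less. Among stem and progenitor markers Slamf1 (8.15 and 8.41) differed less than the brighter Gata2 (12.27 and 13.11) and Meis1 (11.12 and 12.52). Erythroid markers of mature cells summed to 9.72 to 9.98 on the Jak2VF arrays and 9.86 to 11.2 on the WT arrays. Cd79a and Jchain of the B lineage and Cd3d, Cd3e and Gzma of T and NK cells were detected on none of the 8 arrays. In such samples fewer cells of a type and less RNA per cell cannot be told apart, and the part of cell composition in the differences that follow was not tested.

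The red-cell genes had the highest list median of the 30 lists, although the ribosome assembly list stood above them in several alternatives. These were centring on all probes (1.11 against 1.04), centring on detected probes (0.62 against 0.56), no background correction and the authors' values (0.50 against 0.42 in both). The same held with no filter on dim probes (0.52 against 0.49) and within slide 2 (0.53 against 0.47). Red-cell formation begins when progenitors switch on the factors Gata1 and Klf1 and then build a membrane skeleton, blood-group proteins and haem. Of 45 tested erythroid transcription factor and progenitor genes 22 were higher (48.9%, against 7.62% of all genes) and 2 lower, with a median log2 difference of 0.67 against 0.01 over all genes.

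Ermap stood at log2 9.73, 9.87, 9.76 and 10.28 on the 4 Jak2VF arrays and at 6.26, 5.10, 7.62 and 7.24 on the 4 WT arrays. Every Jak2VF array lay above every WT array, by a log2 difference of 3.35 (SE 0.42, adjusted p = 0.000195). Ank1 had 8.87, 8.65, 8.98 and 9.59 on the Jak2VF arrays against 6.36, 4.72, 6.59 and 6.21 on the WT arrays, again without overlap (difference 3.05, SE 0.42, adjusted p = 0.000282). Rhag, the Rh-associated glycoprotein of the red-cell membrane, had 7.38, 8.16, 8.17 and 9.03 against 5.97, 4.43, 5.73 and 5.64 in WT cells (2.74, SE 0.38, adjusted p = 0.000289). Lack of overlap was a condition of the rule that named these 3 genes among the largest differences. In each of them the lowest WT array was the dim replicate 2, and its omission left the calls in place. Each was above background on 3 of the 4 WT arrays, as were Crip2, Spire1, Ccne1 and Cx3cr1, and Mt2 and Paqr9 on 2, so these folds rest in part on signal near background.

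Klf1, the red-cell transcription factor, stood at 12.15, 12.02, 11.84 and 12.26 in Jak2VF cells and at 10.54, 10.27, 10.95 and 10.79 in WT cells. It was 2.69-fold higher (SE 0.19 on the log2 scale, adjusted p = 0.000247). Epor, the erythropoietin receptor gene, was 1.98-fold higher, with Jak2VF arrays between 9.03 and 9.36 and WT arrays between 8.04 and 8.40 (adjusted p = 0.00753). Rhd, which encodes the Rh blood-group protein, was above background on all 4 Jak2VF arrays and on none of the WT arrays, at least 2.39-fold higher, where the bound sets the bright arrays against the lowest signal that counts as detected (adjusted p = 0.000104). Tlcd4 was likewise at least 3.92-fold higher (adjusted p = 7.87e-05). The other members called higher were Kel, Cldn13, Minpp1, Cited4, Blvrb, Tspo2, Add2, Tspan33, Aqp9, Car2, Slc25a38, Prdx2, Tfrc, Cpox and Fech, with log2 differences from 0.49 to 2.06.

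The 2 erythroid members that were lower were Nfe2 (−0.65) and Lmo2 (−0.48), genes of transcription regulators that platelet and stem cells also use. Their count of 2 was 5 on the 8 interferon arrays alone, fell to 0 without Jak2VF interferon replicate 4 and to 1 without WT replicates 1, 3 or 4 or Jak2VF replicates 1 or 2. Gata1, the erythroid master regulator, was not called (0.50, SE 0.52, adjusted p = 0.603). Centring on all probes left 12 members higher and 0 lower, and within slides 7 and 1 were higher.

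The globin genes of mature red cells were not called. Of 3 such genes 0 passed (1 was lower without WT interferon replicate 4), with a median difference of −0.25 that turned to 0.20 under centring on all probes. Hba-a1, an alpha globin gene, had 7.62, 8.06, 8.40 and 8.07 on the Jak2VF arrays against 9.05, 10.51, 9.58 and 7.94 on the WT arrays, groups that overlapped (−1.23, SE 0.55, adjusted p = 0.148). Its probe may not separate near-identical alpha globin copies.

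Haem synthesis and iron genes stood with the red-cell genes, in part because the lists share members. Cpox, Fech, Tfrc and Prdx2 were counted in the erythroid list as well. Of 8 haem synthesis genes 3 were higher (37.5%, against 7.62% of all genes) and 0 lower, with a median of 0.57. Cpox, the coproporphyrinogen oxidase gene, above background on 1 of the 4 WT arrays, was 3.21-fold higher as measured and 3.09-fold with each WT array at no less than its lowest detected signal, with Jak2VF arrays at 7.29, 6.87, 7.06 and 6.99 and WT arrays at 5.09, 6.35, 5.02 and 5.03 (adjusted p = 0.000639). Alad, of an earlier step, was 1.75-fold higher (adjusted p = 0.000195). Fech, the last enzyme, passed narrowly (0.87, SE 0.29, adjusted p = 0.0474) and lost its call without WT interferon replicates 1, 2 or 4, Jak2VF interferon replicates 1, 2 or 4, WT vehicle replicate 4 or any 1 Jak2VF vehicle array, at up to 0.17. The haem count reached 5 without WT vehicle replicate 3 and was 1 under centring on all probes.

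Of 29 iron handling and oxidative defence genes 11 were higher (37.9%, against 7.62% of all genes) and 0 lower, with a median of 0.46. Tfrc, the transferrin receptor gene that brings iron into the cell, had 10.75, 11.18, 11.18 and 11.57 on the Jak2VF arrays and 9.44, 9.15, 8.82 and 9.02 on the WT arrays. The groups stood apart by 2.06 (SE 0.22, adjusted p = 6.4e-05). Slc40a1, which encodes the iron exporter ferroportin, was 4.11-fold higher (adjusted p = 0.000709), and Aco1, an iron-sensing protein, was higher by 1.21. The metallothionein genes Mt2 and Mt1, whose products bind zinc and other metals and whose probes may not tell the copies apart, were 8.16-fold and 3.60-fold higher (adjusted p = 0.000181 and 1.48e-05). Mt1 was bright in both groups, between 14.28 and 14.48 on the Jak2VF arrays and between 12.17 and 12.73 on the WT arrays. The glutathione synthesis genes Gclc (0.84) and Gclm (0.80), the ferritin heavy chain gene Fth1 (0.46), and Prdx2, Sod2 and Tfr2 made up the rest. Without WT interferon replicate 1 the count was 7 higher and 1 lower (1 lower also without Jak2VF vehicle replicate 1 or WT vehicle replicate 3), and under centring on all probes it was 4 higher.

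Promoters are shown because GATA factors act on red-cell genes through the letters AGATAA and TGATAA. RefSeq promoters (assembly GRCm38.p6, 250 bases before the first listed start) were found for 18 of the 22 erythroid genes called higher. Of these, 7 held AGATAA or TGATAA on either strand (38.9%), against 9.7% of the 7568 tested genes with a promoter in the table, 11.2% of all genes called higher, 12.3% of those called lower and 17% of all 27025 promoters of that length. In other lists it was 10.5% of 19 promoters of megakaryocyte genes called lower and 0 of the 22 promoters found for 26 ribosome assembly genes called higher. The 7 genes are Ermap, Rhag, Rhd, Cpox, Kel, Klf1 and Epor. The share among erythroid members not called higher was not counted. Whether the motif goes with the genotype difference or with red-cell genes as such was therefore not tested. A match describes the letters only and marks no bound site. The first 4 of them by size of the difference are printed below, 5′ to 3′ on the strand of the gene and ending at the base before the start, with the matched letters in capitals.
Ermap, chr4:119189996-119190245, minus strand: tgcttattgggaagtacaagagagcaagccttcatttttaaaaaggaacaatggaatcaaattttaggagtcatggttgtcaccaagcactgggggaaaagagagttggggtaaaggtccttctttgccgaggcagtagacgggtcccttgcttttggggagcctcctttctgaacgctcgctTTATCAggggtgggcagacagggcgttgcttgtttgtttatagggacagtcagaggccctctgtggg
Rhag, chr17:40810899-40811148, plus strand: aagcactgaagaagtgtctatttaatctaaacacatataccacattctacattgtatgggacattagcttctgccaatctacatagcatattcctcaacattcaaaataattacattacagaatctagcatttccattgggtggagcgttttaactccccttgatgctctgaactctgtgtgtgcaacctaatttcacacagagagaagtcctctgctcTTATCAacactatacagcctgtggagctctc
Rhd, chr4:134864286-134864535, plus strand: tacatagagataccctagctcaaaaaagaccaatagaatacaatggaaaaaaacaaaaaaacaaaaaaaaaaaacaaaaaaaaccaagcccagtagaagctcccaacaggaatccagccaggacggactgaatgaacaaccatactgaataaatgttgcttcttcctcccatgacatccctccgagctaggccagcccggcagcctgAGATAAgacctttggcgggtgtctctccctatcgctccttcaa
Cpox, chr16:58669958-58670207, plus strand: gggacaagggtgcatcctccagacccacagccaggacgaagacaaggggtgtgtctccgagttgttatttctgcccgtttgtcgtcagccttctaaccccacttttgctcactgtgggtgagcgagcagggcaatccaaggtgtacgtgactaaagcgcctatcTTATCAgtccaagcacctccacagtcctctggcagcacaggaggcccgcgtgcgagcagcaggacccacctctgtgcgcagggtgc
In Ermap, Rhag and Cpox the capitals read TTATCA, the reverse complement of TGATAA, and in Rhd they read AGATAA.

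**Figure D2:**
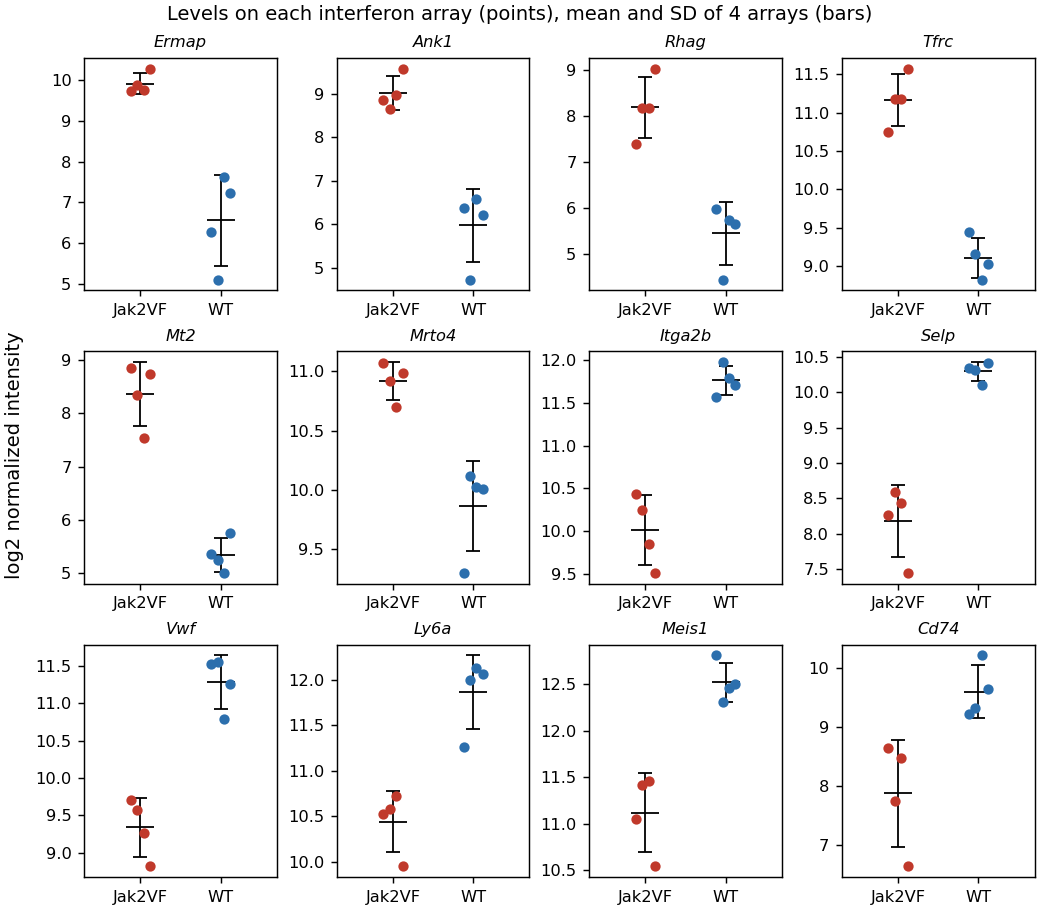
Log2 normalized intensity of 12 genes on each interferon array (points, Jak2VF left, WT right) with the mean and SD of 4 arrays (bars). Ermap, Ank1, Rhag, Tfrc, Mt2 and Mrto4 lay higher on every Jak2VF array, and Itga2b, Selp, Vwf, Ly6a, Meis1 and Cd74 lower on every one.

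Other genes with the largest differences upward belonged to none of the 30 lists. Eraf is among them, under its deposited symbol, and the erythroid and globin counts do not include it. Ptpn7, a tyrosine phosphatase gene, stood at 10.08, 10.03, 9.51 and 9.86 on the Jak2VF arrays and at 4.76, 4.61, 4.68 and 5.09 on the WT arrays, where 1 of the 4 was above background. As measured it was 34.0-fold higher (SE 0.15 on the log2 scale, adjusted p = 1.61e-11), or 24.7-fold with each WT array set to no less than its lowest detected signal. Sphk1, a sphingosine kinase gene, was 12.2-fold higher (adjusted p = 0.000241), Slc38a5, an amino acid transporter gene, 12.1-fold (5.47e-05) and Eraf, as the deposited table spells it, 11.6-fold (0.000195). Crip2 was 9.50-fold, Col5a1 6.17-fold, Spire1 6.14-fold and Paqr9 6.14-fold higher (adjusted p = 0.000406, 0.00162, 7.7e-05 and 2.73e-06). The Sphk1 arrays lay between 11.34 and 11.97 in Jak2VF cells and between 7.45 and 8.63 in WT cells. The arrays of each of these genes did not overlap between genotypes, which the rule that named them required.

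Genes that build ribosomes were higher as a group. The nucleolus assembles ribosomes with processing factors that the transcription factor Myc drives. Of 50 tested ribosome assembly genes and Myc targets 26 were higher (52%, against 7.62% of all genes) and 0 lower. Their median log2 difference was 0.55. The differences were smaller than those of red-cell genes, at most 1.06 among the called members. Mrto4, a ribosome assembly factor gene, had 11.07, 10.92, 10.70 and 10.99 on the Jak2VF arrays against 9.30, 10.12, 10.03 and 10.01 on the WT arrays (2.08-fold, SE 0.17 on the log2 scale, adjusted p = 0.000739). Rrp9, which processes ribosomal RNA, was 1.95-fold higher (adjusted p = 0.000307), and Cad, of pyrimidine synthesis, 1.87-fold (0.00368). Odc1, of polyamine synthesis, was higher by 0.73, and the abundant nucleolar gene Npm1 by 0.47, with Jak2VF arrays from 14.92 to 15.41 and WT arrays from 14.48 to 14.66. Ftsj3, higher by 0.99, lost its call without WT replicate 2 or Jak2VF replicates 3 or 4 of the interferon arrays (adjusted p = 0.0674, 0.0553 and 0.0731). Omitting single arrays left between 21 and 31 members higher, and centring on all probes called 0, although the list's median there was 1.11 against 0.33 for all genes.

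Mitochondrial ribosomal protein genes followed, with 21 of 70 higher (30%, against 7.62% of all genes), 0 lower and a median of 0.35. Mrps22 had 9.95, 10.17, 10.20 and 10.30 on the Jak2VF arrays and 9.41, 9.36, 9.31 and 9.30 on the WT arrays (1.76-fold, SE 0.15 on the log2 scale, adjusted p = 0.00202). The count was 13 without WT interferon replicate 3 and 13 without Jak2VF interferon replicate 4, and 0 under centring on all probes, where the median was 0.88. It was 47 with array brightness as a covariate and 40 with array weights. Of 63 cytosolic ribosomal protein genes 4 were higher (6.35%, near the 7.62% of all genes) and 0 lower, and their median of −0.08 turned to 0.21 under centring on all probes. The 4 are Rps27a, Rpl14, Rps27l and Rplp0, and 0 were left without WT interferon replicate 3 and 1 without WT interferon replicate 1 or Jak2VF interferon replicates 1, 2 or 4. Probes for such genes may also bind processed pseudogene transcripts. Among 71 respiratory chain and ATP synthase genes 5 were higher (7.04%, near the 7.62% of all genes) and 0 lower, with Ndufab1 at 2.15-fold (adjusted p = 0.00805). That count was 3 without WT replicate 3 or Jak2VF replicates 2 or 4, 25 with array brightness as a covariate and 18 with array weights.

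The cell cycle lists were called about as often as all genes or less. Of 57 DNA replication and G1/S genes 6 were higher (10.5%, against 7.62% of all genes) and 3 lower, with a median of 0.16. Ccne1, the cyclin E1 gene, stood at 8.05, 7.85, 7.55 and 8.39 on the Jak2VF arrays and at 6.37, 4.53, 6.08 and 6.47 on the WT arrays, 4.28-fold apart (adjusted p = 0.00255). Rrm2, a ribonucleotide reductase subunit gene, was 1.68-fold higher (adjusted p = 0.00316), and Orc1, Mcm10, Rrm1 and Chaf1a were also called, Orc1 not so without Jak2VF interferon replicates 1 or 4 or WT interferon replicates 3 or 4, at up to 0.0766. Ccnd1, the cyclin D1 gene, was instead 2.70-fold lower, with 8.86, 8.40, 8.75 and 8.22 against 10.42, 9.46, 9.77 and 10.31 in WT cells (adjusted p = 0.000388). Ccnd3 and Rfc2 were the other lower members. The count of 6 was 3 without Jak2VF interferon replicate 4, 10 without WT vehicle replicate 3, 11 on the authors' values and under centring on detected probes, and 12 with array weights or no background correction. Of 50 G2/M and mitosis genes 3 were higher (6%) and 0 lower, namely Plk1 (0.45), Aurka (0.36) and Kif2c (0.35). That count was 0 without WT interferon replicates 2 or 4, 1 without WT replicate 3 or Jak2VF replicates 3 or 4, and 8 without WT vehicle replicate 3, it was 14 with array weights, and 1 was lower without Jak2VF interferon replicate 4.

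**Figure D3:**
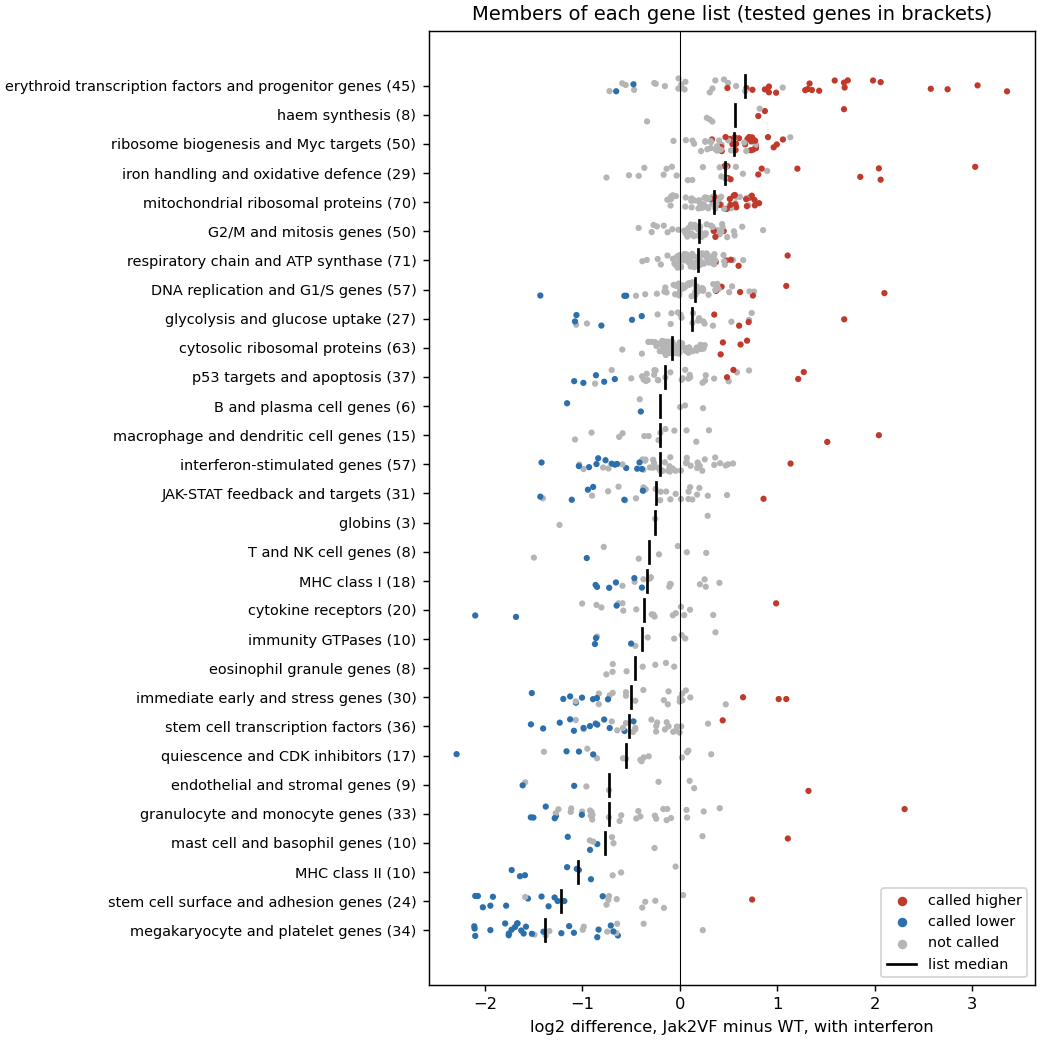
Log2 difference, Jak2VF minus WT with interferon (x axis), of each tested member of 30 gene lists (rows, number of tested genes in brackets). Red points are called higher, blue called lower and grey not called, and black bars are list medians, from 0.67 for erythroid genes at the top to −1.39 for megakaryocyte genes at the bottom.

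Platelet genes had the lowest list median of the 30 lists. Megakaryocytes, the platelet-forming cells, share many surface proteins with stem cells. Of 34 tested megakaryocyte and platelet genes 24 were lower (70.6%, against 10.1% of all genes) and 0 higher, with a median log2 difference of −1.39. Omission of single arrays left 19 to 28 lower. Under centring on all probes 0 were called and the median was −1.03, and within slides 8 and 1 were lower.

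Selp stood at 8.27, 8.59, 8.44 and 7.45 in Jak2VF cells against 10.35, 10.31, 10.11 and 10.41 in WT cells (−2.11, SE 0.21, adjusted p = 4.21e-05). Vwf, the von Willebrand factor gene, which marks platelet-biased stem cells, stood at 9.71, 9.57, 9.26 and 8.82 against 11.53, 11.56, 10.79 and 11.26 in WT cells (−1.94, SE 0.27, adjusted p = 0.000337). The groups did not overlap in either gene, which the rule that named both among the largest differences required. In both the lowest array was Jak2VF replicate 4, and each kept its call without it.

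The genes of the platelet receptor for von Willebrand factor, Gp9 (−1.79), Gp1bb (−1.66) and Gp5 (−0.68), were all lower. Itga2b was 3.37-fold lower, with Jak2VF arrays at 10.43, 10.25, 9.85 and 9.51 and WT arrays at 11.57, 11.98, 11.79 and 11.71 (adjusted p = 0.000195). Pf4, a chemokine of platelet granules, was 3.18-fold lower, between 12.15 and 13.75 on the Jak2VF arrays and between 14.43 and 14.89 on the WT arrays (adjusted p = 0.000843). Cavin2, a caveola protein gene, was 4.30-fold lower (adjusted p = 7.07e-05). The thromboxane pathway was represented by Ptgs1 (−1.58), Tbxas1 (−1.63) and the receptor gene Tbxa2r (−1.69), and the transcription factors by Fli1 (−1.09) and Gata2 (−0.85). The remaining lower members were Plek, Treml1, Cd9, P2rx1, Serpine2, Rasgrp2, Rab27b, Slc14a1, P2ry1 and Lat, from −1.75 to −0.64.

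Stem cell genes were lower too, and some are shared with the platelet list. Of 24 stem cell surface and adhesion genes 13 were lower (54.2%, against 10.1% of all genes) and 1 higher, with a median of −1.22. Esam, an adhesion molecule of stem cells, had 9.41, 9.25, 9.06 and 7.49 on the Jak2VF arrays and 10.67, 11.45, 10.74 and 10.62 on the WT arrays (4.20-fold lower, SE 0.34 on the log2 scale, adjusted p = 0.000922). Ly6a, which encodes the sorting marker Sca-1 and is itself induced by interferon, lay between 9.95 and 10.72 on the Jak2VF arrays and between 11.26 and 12.13 on the WT arrays, where replicate 1 was the lowest (2.67-fold lower, adjusted p = 0.000369). Clu, Sult1a1, Robo4, Cd27, Ctnnal1, Alcam, Cd63, Cd34 and Itga6 were lower with differences from −2.02 to −0.79, as was Vwf. Cd48, which is low on stem cells and present on their progeny, was the 1 higher member, at 9.25, 9.46, 9.08 and 8.95 in Jak2VF cells against 8.46, 8.51, 8.37 and 8.43 in WT cells (0.74, SE 0.18, adjusted p = 0.0105). Centring on all probes left 1 member lower, Sult1a1, with a median of −0.76.

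Of 36 stem cell transcription factors 13 were lower (36.1%, against 10.1% of all genes) and 1 higher, with a median of −0.52. Meis1, which maintains stem cells, had 11.06, 11.41, 11.46 and 10.54 on the Jak2VF arrays and 12.81, 12.31, 12.46 and 12.50 on the WT arrays (2.64-fold lower, SE 0.18 on the log2 scale, adjusted p = 0.000195). The Hox genes Hoxa5 (−1.23), Hoxb5 (−0.99), Hoxa7 (−0.92) and Hoxb4 (−0.78) were lower, and so was Runx1 (−0.86), a regulator of blood stem cell formation. Gata2, Fli1, Lmo2, Klf6, Sox4 and Etv6 were the other lower members, and Klf6 lost its call without Jak2VF interferon replicate 4 (0.0531). Nkx2-3 was lower by 1.53 on the log2 scale, a call lost without WT interferon replicate 2 or Jak2VF replicate 4 (adjusted p = 0.0537 and 0.0547). Without Jak2VF interferon replicate 4 the count of 13 fell to 6, and under centring on all probes to 0, with a median of −0.25. The 1 higher member, Ikzf1 (0.44), lost its call without any 1 array other than WT interferon replicate 2 and WT vehicle replicates 2 and 3.

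Among 17 quiescence genes and inhibitors of cyclin-dependent kinases 4 were lower (23.5%, against 10.1% of all genes) and 0 higher. Their median was −0.55, and 7 were lower on the 8 interferon arrays alone or with array weights. Ndn, which encodes the growth suppressor necdin, had 5.60, 5.31, 5.43 and 5.02 on the Jak2VF arrays and 7.05, 8.28, 7.15 and 8.04 on the WT arrays (4.89-fold lower, SE 0.42 on the log2 scale, adjusted p = 0.0019). Txnip, an inhibitor of glucose uptake, Cdkn2d, a CDK inhibitor gene, and Btg1, an antiproliferative gene, were 2.24-fold, 2.05-fold and 1.85-fold lower (adjusted p = 0.000191, 0.00384 and 0.0109).

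Interferon-stimulated genes differed modestly between the treated groups. Of 57 tested members 13 were lower (22.8%, against 10.1% of all genes) and 1 higher. Their median log2 difference of −0.20 turned to 0.18 under centring on all probes, where all genes had 0.33 and 0 members were called. Usp18, which switches interferon signalling off, had 10.10, 10.02, 9.94 and 9.77 on the Jak2VF arrays and 10.71, 11.09, 10.90 and 10.84 on the WT arrays (1.91-fold lower, SE 0.11 on the log2 scale, adjusted p = 0.000126). Uba7, the activating enzyme for the ubiquitin-like protein Isg15, was 2.05-fold lower (adjusted p = 0.00096). Oasl1, an antiviral regulator gene, was 2.20-fold higher, with 9.54, 8.71, 9.21 and 9.44 against 7.94, 7.89, 8.39 and 8.13 in WT cells (adjusted p = 0.00698). The other lower members were Ly6a, Epsti1, Rsad2, Ifi27, Oasl2, Shisa5, Ifit2, Ifitm3, Trim30a, Ifitm2 and Psmb9. Irf7 (−0.15, SE 0.35) and Isg15 (0.41, SE 0.27) were not called, at adjusted p of 0.836 and 0.352. The count of 13 was 8 without WT interferon replicate 4 and 8 without Jak2VF interferon replicate 4.

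Of 10 immunity GTPases 3 were lower (30%, against 10.1% of all genes) and 0 higher, Gbp2 (−0.87), Gvin1 (−0.86) and Ifi47 (−0.50). The list median of −0.39 turned to 0.12 under centring on all probes. The count of 3 was 0 without WT interferon replicate 3 or Jak2VF replicates 1 or 4 and 1 without WT replicates 1 or 4. It was 5 on the 8 interferon arrays alone. Of 18 MHC class I genes 6 were lower (33.3%, against 10.1%) and 0 higher, with a median of −0.34, or 0.13 under centring on all probes. H2-M3, a non-classical class I gene, was 1.82-fold lower, with Jak2VF arrays between 8.60 and 8.85 and WT arrays between 9.38 and 9.88 (adjusted p = 0.00059). H2-T23, H2-T22, Tapbpl, Tap2 and Psmb9 were also lower, Tapbpl not so without Jak2VF interferon replicate 4 (adjusted p = 0.0654). Probes of class I genes may not separate related copies.

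MHC class II genes, which present antigen and are driven by interferon gamma more than by interferon alpha, showed larger differences. Of 10 tested 7 were lower (70%, against 10.1% of all genes) and 0 higher, with a median of −1.05. Cd74 stood at 8.63, 7.74, 8.47 and 6.63 on the Jak2VF arrays and at 9.22, 9.32, 10.21 and 9.63 on the WT arrays (−1.72, SE 0.37, adjusted p = 0.00504). H2-Aa, a class II alpha chain gene, had 9.45, 8.88, 9.30 and 7.87 against 10.31, 10.47, 10.68 and 10.40 in WT cells (−1.59, SE 0.30, adjusted p = 0.0022). Jak2VF replicate 4 was again the lowest array, and without it both genes kept their call, while H2-Eb1 (−1.64) did not (adjusted p = 0.0783) nor without WT replicates 2 or 3 (0.0521 and 0.0567). The other members called were H2-DMb1 (−1.16), H2-DMa (−1.06), H2-Ob (−1.04) and H2-Ab1 (−0.91). Under centring on all probes 0 were called and the median was −0.67.

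Of 31 genes of JAK-STAT feedback and targets 6 were lower (19.4%, against 10.1% of all genes) and 1 higher. Their median of −0.25 turned to 0.16 under centring on all probes. The lower genes were Ccnd1, Stat4 (−1.11), Stat3 (−0.94), Irf1 (−0.89), Ccnd3 (−0.57) and Ptpn6 (−0.38), and the higher one was Osm (0.86), a cytokine gene that Stat5 induces. Stat3 had 10.23, 9.97, 10.13 and 9.72 on the Jak2VF arrays and 10.82, 11.28, 10.98 and 10.74 on the WT arrays (adjusted p = 0.000449). Cish (−0.14, SE 0.21) and Pim1 (−0.63, SE 0.26), known targets of Stat5, were not called (adjusted p = 0.736 and 0.118). The count of 6 was 3 without Jak2VF interferon replicate 4, 10 without WT vehicle replicate 3 and 12 with array weights, and Irf1 lost its call in the first of these (0.0645). Among 20 cytokine receptors 3 were lower (15%, against 10.1% of all genes), among them Cxcr4 and Tgfbr2. Epor was the 1 higher member (5%, against 7.62%). Cxcr4, the receptor that holds stem cells in the marrow, had 8.45, 8.80, 8.78 and 8.23 against 10.12, 10.29, 10.15 and 10.42 in WT cells (3.20-fold lower, adjusted p = 0.000104). Tgfbr2 (−0.65) lost its call without WT replicates 1 or 3 or Jak2VF replicates 1, 2 or 4, at up to 0.075, and 5 receptors were lower without WT vehicle replicate 3 and 8 on the 8 interferon arrays alone, with array weights or under centring on detected probes.

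Jak2 itself had 8.60, 8.66, 9.33 and 9.21 on the Jak2VF arrays and 9.51, 8.60, 9.37 and 9.11 on the WT arrays. The groups overlapped and the gene was not called (−0.20, SE 0.22, adjusted p = 0.625). A knock-in changes its sequence and not its copy number, so its level checks no label.

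Genes of other blood lineages were mostly lower or not called. Of 33 granulocyte and monocyte genes 6 were lower (18.2%, against 10.1% of all genes) and 1 higher, with a median of −0.73. Without Jak2VF vehicle replicate 1 the lower genes were 10, on the 8 interferon arrays alone 17 and with array weights 16. Lyz1, a lysozyme gene close in sequence to Lyz2, had 11.19, 11.52, 11.15 and 10.35 on the Jak2VF arrays and 12.60, 12.60, 12.52 and 12.50 on the WT arrays (−1.50, SE 0.20, adjusted p = 0.000237). Fcer1g, Lyz2, Prtn3, Alox5ap and Ncf4 were lower too, Fcer1g by the largest difference of these (−1.53). Mpo (−1.11, SE 0.42, adjusted p = 0.0833) and Elane (−1.12, SE 0.51, adjusted p = 0.158), granule genes of the same lineage, were not called. Cx3cr1, the fractalkine receptor gene, was the higher member, at 8.22, 7.97, 8.04 and 8.16 against 5.87, 5.48, 5.93 and 5.90 in WT cells (4.94-fold, adjusted p = 4.09e-05).

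Of 10 mast cell and basophil genes 3 were lower (30%, against 10.1% of all genes), Fcer1a, Cpa3 and Gata2. Il1rl1 was the 1 higher member (10%, against 7.62%), and the list median was −0.77. Fcer1a (−1.15) lost its call without WT replicates 2 or 3 or Jak2VF replicates 1 or 4, and Il1rl1 (1.11) without WT replicates 1 or 4 or Jak2VF replicates 3 or 4, at up to 0.0786 in either gene. None of 8 eosinophil granule genes was called, and Ear6 was chosen as the one with the smallest p (−0.69, SE 0.45, adjusted p = 0.357), though its probe may not separate near-identical Ear copies. Among lists of mature lymphoid cells 2 of 6 B and plasma cell genes were lower (33.3%, against 10.1% of all genes). These were Cd79b (−1.16, SE 0.24, adjusted p = 0.00418) and Xbp1 (−0.40). The Xbp1 call was lost without WT interferon replicates 1 or 2, Jak2VF interferon replicates 1, 2 or 4 or Jak2VF vehicle replicate 2, at up to 0.135. Of 8 T and NK cell genes 1 was lower (12.5%, near the 10.1% of all genes), Nkg7, a granule protein gene (−0.95, SE 0.17, adjusted p = 0.00134). The count was 2 without WT interferon replicate 4, Jak2VF interferon replicate 1 or WT vehicle replicate 3. Of 15 macrophage and dendritic cell genes 2 were higher (13.3%, against 7.62% of all genes), Slc40a1 and Zbtb46. None was lower in the main fit, and 1 was without WT vehicle replicates 1 or 2 or Jak2VF vehicle replicates 1 or 4. Zbtb46, above background on no WT array and at least 1.96-fold higher, lost its call without Jak2VF interferon replicate 4 (adjusted p = 0.0781). Of 9 endothelial and stromal genes Bgn (−1.61) and Pecam1 (−1.08) were lower (22.2%, against 10.1% of all genes) and Plvap (1.32) higher (11.1%, against 7.62%). The count of lower genes was 4 without WT vehicle replicate 3. It was 5 on the 8 interferon arrays alone, with array weights or under centring on detected probes.

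Glucose metabolism was split. Of 27 glycolysis and glucose uptake genes 4 were higher (14.8%, against 7.62% of all genes) and 5 lower (18.5%, against 10.1%). Their median was 0.13. The 2 pyruvate kinase genes went opposite ways. Pkm, the form of most cells, had 10.53, 10.86, 10.97 and 10.17 on the Jak2VF arrays and 11.80, 11.43, 11.73 and 11.80 on the WT arrays (2.09-fold lower, adjusted p = 0.000651). Pklr, the form of liver and red cells, was above background on all 4 Jak2VF arrays and on no WT array, at least 2.11-fold higher (adjusted p = 0.000195). Slc2a1, a glucose transporter gene, was 2.11-fold lower (adjusted p = 0.00027), and Slc2a3, Pfkfb4 and Pgam1 were also lower, while Pfkm, Taldo1 and Tpi1 were higher. The count of lower genes was 3 without WT interferon replicates 1 or 4 or Jak2VF replicates 1, 2 or 4, and Pfkfb4 was among those lost, at up to 0.102.

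The p53 targets and apoptosis genes were called at shares near those of all genes. Of 37 such genes 4 were higher (10.8%, against 7.62%) and 5 lower (13.5%, against 10.1%), with a median of −0.15, or 0.19 under centring on all probes. Bcl2, which protects cells from apoptosis, was 1.99-fold lower, at 8.50, 8.89, 8.85 and 7.97 on the Jak2VF arrays against 9.91, 9.47, 9.21 and 9.57 in WT cells (adjusted p = 0.00325). Zmat3, Bid and Ccng1 were among the higher members, and Trp53inp1, Bbc3, Gadd45g and Sesn1 also lower. The count of higher genes was 2 without WT interferon replicates 2 or 4 or Jak2VF replicates 1, 3 or 4, and that of lower genes was 2 with the mean over probes and 8 with array weights. Of 30 immediate early and stress genes 8 were lower (26.7%, against 10.1%) and 3 higher (10%, against 7.62%), with a median of −0.50. Ddit4, an inhibitor of mTOR signalling, had 7.07, 8.29, 7.62 and 7.41 against 8.59, 9.47, 9.03 and 9.37 in WT cells (2.86-fold lower, adjusted p = 0.0133). Jun, Jund, Ier3, Klf6 and the phosphatase genes Dusp1, Dusp2 and Dusp6 were lower, and Asns, of asparagine synthesis (1.09), and the heat shock genes Hsph1 (1.01) and Hsp90aa1 (0.65) higher. The count of 8 fell to 4 without Jak2VF interferon replicate 4 and to 5 without WT interferon replicates 2 or 3, Jak2VF interferon replicate 1 or Jak2VF vehicle replicate 2, or with no filter on dim probes.

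The same genotypes were also compared with vehicle, with no array shared between the comparisons. Both came from the same model and shared each gene's estimate of the spread, so their calls are not fully independent. There 41 genes were called (0.424%), 30 higher and 11 lower, and 2016 had an unadjusted p under 0.05. Brightness differed between the vehicle groups, with mean intensity from 391 to 616 on the Jak2VF arrays and from 162 to 414 on the WT arrays. WT vehicle replicate 3, the dimmest at 162, had 31.9% of probes detected. The part of brightness in the vehicle calls was not tested. Of the 41 genes 28 were also called with interferon (68.3% of the vehicle calls and 1.63% of the interferon calls), all with the same sign. Of the 1717 genes called with interferon 1477 (86%) had the same sign with vehicle, against 67.2% of all genes. Genes called with vehicle as well include Ptpn7 (5.09 with interferon and 5.34 with vehicle), Ctse (−3.21 and −3.56), Ndn (−2.29 and −2.13), Cxcr4 (−1.68 and −1.47), Klf1 (1.43 and 1.21) and Cx3cr1 (2.30 and 1.79). The median of the megakaryocyte list was −1.39 with interferon and −0.43 with vehicle, that of stem cell surface genes −1.22 and −0.35, that of erythroid genes 0.67 and 0.30, that of ribosome assembly genes 0.55 and 0.31, and that of MHC class II genes −1.05 and −0.22.

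A gene called with one treatment only is not thereby shown to differ between treatments, so the difference of the genotype effects was tested. It called 11 genes (0.114%), 9 of them with a more positive and 2 with a more negative genotype effect under interferon, and 1361 had an unadjusted p under 0.05. The median standard error of this difference was 0.30. All 11 were among the 1717. Sfrp4, an antagonist of Wnt signalling, had 6.94, 6.33, 7.37 and 7.35 on the Jak2VF interferon arrays and 4.53, 4.57, 4.55 and 4.63 on the WT interferon arrays, none of which was above background. It was at least 3.38-fold higher with interferon and its genotype difference with vehicle was 0.15 (difference of effects 2.28; adjusted p = 0.00338). The erythroid genes Tlcd4 (2.57 and −0.35, difference 2.92, adjusted p = 0.0142), Rhd (1.72 and 0.12, difference 1.60, 0.0422) and Add2, the beta adducin gene of the red-cell skeleton, were also called, as were Paqr9, Abcg4, Abca3, Nxpe4, Pla2g12a and Ggt5. This count was 2 without WT vehicle replicate 1, 3 without WT interferon replicates 1 or 3, 6 without Jak2VF vehicle replicates 1 or 2 or WT interferon replicate 2, 7 without Jak2VF interferon replicate 1 or WT interferon replicate 4, and 25 without WT vehicle replicate 2. It was 0 within either slide and under centring on detected probes, 22 with array brightness as a covariate, 75 on the authors' values, 76 without background correction and 145 with array weights.

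**Figure D4:**
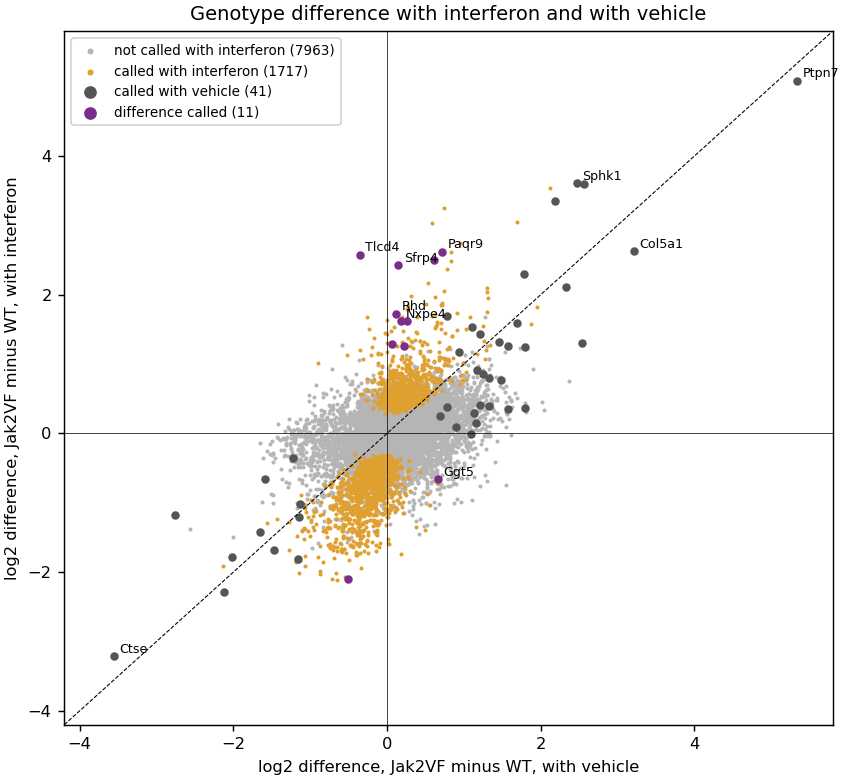
Log2 difference, Jak2VF minus WT, with vehicle (x axis) and with interferon (y axis) for 9680 genes, with the dashed line at equal differences. Orange points are called with interferon (1717), dark points with vehicle (41) and purple points for the difference (11). Ptpn7 and Ctse lie near the line, Tlcd4 and Sfrp4 away from it.

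Genes near Ptprc on chromosome 1 and near Jak2 on chromosome 19 were set out in chromosomal order, since DNA linked to these 2 loci may differ between the genotypes. Of the 40 tested genes nearest Ptprc, 20 on each side, 12 were called with interferon (30%, against 17.7% of all genes), 5 higher and 7 lower, and 3 with vehicle (against 0.424% of all genes). The median absolute difference of these 40 genes was 0.25, against 0.27 over all genes. Ptpn7 lies 13 tested genes from Ptprc, and Ptprv, another phosphatase gene, 14. Ptprv had 6.30, 5.95, 6.01 and 5.49 on the Jak2VF arrays and 7.59, 7.91, 7.72 and 7.63 on the WT arrays (−1.78 with interferon and −2.02 with vehicle, adjusted p = 4.04e-05 and 2.9e-05). Rnpep was the other of the 40 called with vehicle. Rgs1, a regulator of chemokine signalling, and Nav1 were lower with interferon (−1.58 and −1.59) and not called with vehicle (−0.33 and −0.29). Ptprc had 7.83, 7.99, 7.58 and 7.46 against 8.38, 8.52, 8.11 and 8.07 in WT cells (−0.55, SE 0.17, adjusted p = 0.0325), a call lost without WT interferon replicates 1 or 2 or Jak2VF replicates 3 or 4, at up to 0.115.

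In a wider window of 80 tested genes on each side, chosen after the values were seen, 41 of 160 genes were called with interferon (25.6%) and 6 with vehicle around Ptprc, and 35 of 160 (21.9%) and 1 around Jak2. Ctse, an aspartic protease gene with the most negative difference of all named genes, lies 39 tested genes from Ptprc, Cxcr4 49 and Selp 54. Ctse had 9.35, 9.75, 9.46 and 9.72 on the Jak2VF arrays against 12.64, 12.54, 13.20 and 12.76 on the WT arrays (9.27-fold lower, adjusted p = 8.13e-08). Around Jak2, 14 of the nearest 40 genes were called with interferon (35%), 5 higher and 9 lower, and 1 with vehicle, and their median absolute difference was 0.42. That 1 was Minpp1, an inositol phosphate phosphatase gene, which averaged 10.76 ± 0.26 on the Jak2VF arrays and 9.08 ± 0.11 on the WT arrays (SD, n = 4 each, without overlap; 3.23-fold higher with interferon, adjusted p = 2.71e-05). Cd274, the PD-L1 gene, which interferon induces, lies 3 tested genes from Jak2 and was 2.29-fold lower, with Jak2VF arrays from 8.14 to 8.77 and WT arrays from 9.43 to 10.05 (adjusted p = 0.000195). Smarca2, Asah2 and Klf9 were also named as neighbours, at −0.97, −1.08 and 0.64. Whether these differences come with the linked DNA was not tested.

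**Figure D5:**
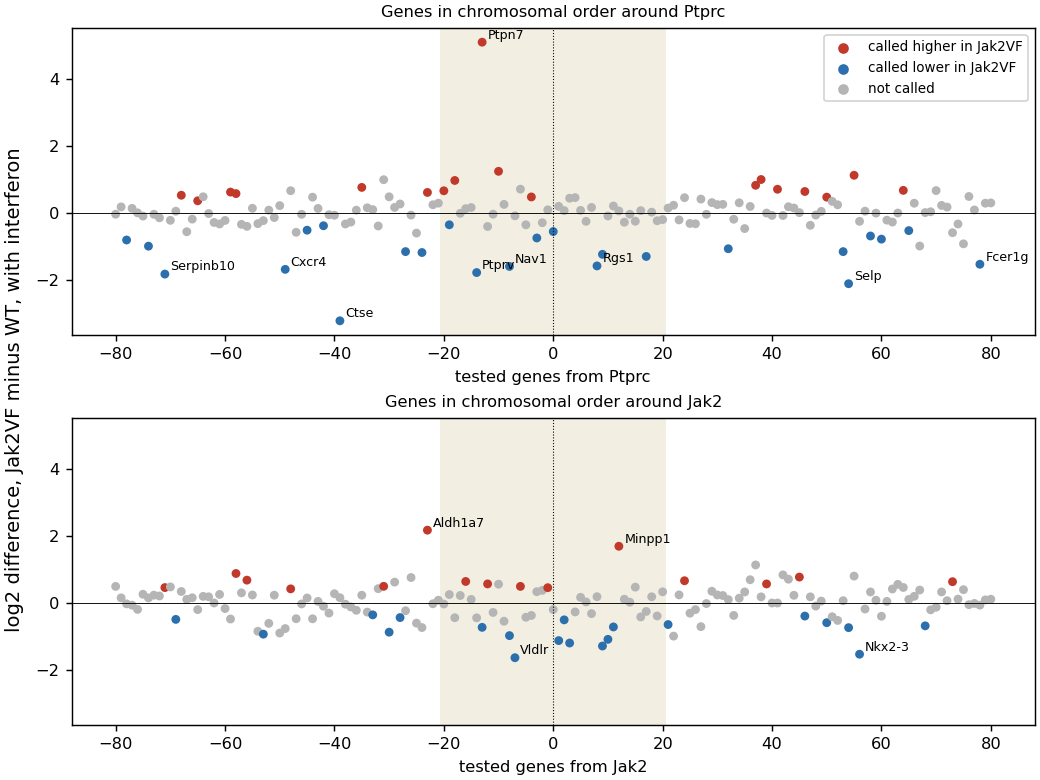
Log2 difference, Jak2VF minus WT with interferon (y axis), of the 80 tested genes on each side of Ptprc (top) and Jak2 (bottom) in chromosomal order (x axis, counted in tested genes), with 20 on each side shaded. Ptpn7 at 5.09 stands above and Ctse at −3.21 below the other neighbours of Ptprc.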

How the data were processed

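Each deposited table was read as its headers describe it. Per the file headers, the main table holds 1 average signal per probe and array, a linear intensity, for 25697 probes. The values show no scaling between arrays. Beside it, per the file headers, stands a detection p-value, small for probes brighter than the negative controls. A second deposited table holds intensity values processed by the authors. Its columns kept the ranks of the scanner values (rank correlation 1), and how they were made is not given in the sources used here. It therefore served as an alternative. Per the labels, RNA came from PicoPure columns and was amplified with TotalPrep, with biotin as the label.

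Intensities were corrected with normexp from the detection p-values (offset 16), then quantile normalized and log2 transformed, all by neqc in limma 3.58.1 (R 4.3.3). Probes with a detection p under 0.05 on at least 4 of the 16 arrays were kept (13364), and the brightest stood for each gene. Of the probes, 7082 had their symbol updated through a RefSeq table (GRCm38.p6), 1046 kept a symbol not in it, and 21 with symbols turned into dates were left out. Where called genes had other passing probes, 778 of 813 had the same sign.

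A linear model of the 4 groups over all 16 arrays (lmFit, then eBayes, with 12 residual degrees of freedom and 2.73 from the prior) gave the genotype difference with interferon, that with vehicle and the difference between them. Adjusted p-values are limma's moderated test with Benjamini-Hochberg adjustment over all genes. A fold stated as "at least" compares the bright group's mean with the lowest signal of a detected probe, or the dim probe's own signal where higher. Where the dim group was above background on some arrays only, folds are as measured, and for a few a fold with dim arrays raised to that signal was added after the data were seen. In data simulated for the interferon comparison, 200 of 9680 genes were changed, fewer than the 1717 called here. Of genes changed by a log2 of 1, 54% were recovered, and of those changed by 2, 90%. Unchanged genes made up 7.69% of calls. These rates may differ where more genes change.

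A few genes are not described individually here, and counts of lists and of all genes include them. The comparison, the lists and the markers were chosen with earlier results of these data known. Genes were named by rule, as the 12 largest differences each way without overlap, up to 4 called members of each of 30 lists (or the smallest p), up to 5 each way for the difference of effects, Jak2, Ptprc and 3 neighbours each way of both. Other list members are named to account for counts, and a few uncalled genes known in a pathway were chosen after their values were seen. Replicate numbers count arrays in series order and pair nothing. Alternatives were no background correction, centring in place of quantile normalization, the authors' values, other filters, the mean over probes, the 8 interferon arrays alone, slide, brightness, array weights and each array left out. Figures were drawn with matplotlib 3.10.9 and pandas 2.3.3 in Python 3.11.15.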

Additional observations from a re-analysis of the deposited data

Results flagged for a closer look

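Among 254 groups of 4 arrays tested, 14 held an array whose gap to its nearest neighbour was large against the range of its group (beyond Dixon's critical value), and chance alone marks about 1 in 20. On the Jak2VF interferon arrays, replicate 4 stood below the others in Hoxa5 (6.64), Nkg7 (11.09) and Slc2a1 (7.46) and above them in Minpp1 (11.15), and replicate 3 stood apart in Gvin1 (10.22) and Ifi47 (11.97). On the WT interferon arrays, replicate 2 stood apart in Esam (11.45), Cpox (6.35), Txnip (11.46), Cx3cr1 (5.48) and Ftsj3 (8.60), and replicate 1 in Ly6a (11.26), Nkg7 (12.15) and Mrto4 (9.30). All values are log2 normalized intensities.

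In these named genes the genotype difference with interferon departed from that with vehicle by limma's test of the difference itself. The departures, interferon minus vehicle on the log2 scale, were 1.90 in Paqr9, 2.92 in Tlcd4, 2.28 in Sfrp4, 1.90 in Abcg4 and 1.60 in Rhd, and −1.33 in Ggt5. Adjusted p was 0.0142, 0.0142, 0.00338, 0.0246, 0.0422 and 0.0422 in that order.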

How the results depend on the processing

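The main counts were 1717 genes called with interferon, 738 higher, 979 lower, 478 at a log2 difference of 1 or more and 11 for the difference of genotype effects. Median centring gave 94, 86, 8, 94 and 6, and 92 of its calls were among the 1717. Centring on probes detected on all arrays, chosen after seeing the data, gave 739 at 1 or more and 0 for the difference (1285 at an unadjusted p under 0.05 in limma). No background correction gave 192 at 1 or more and 76 for the difference, the authors' values 192 and 75. For the difference, no filter on dim probes gave 7 and brightness as a covariate 22. Array weights gave 3354, 1573 and 1781, and 145 for the difference. Slide 1 alone gave 70, 37, 33 and 70, slide 2 alone 5, 3, 2 and 5, and both gave 0 for the difference (596 and 576 unadjusted, limma). Each slide holds 2 arrays of a group.

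Leaving out 1 array gave 1044 to 2301 calls, 446 to 1019 higher, 598 to 1282 lower, 312 to 534 at 1 or more, and 2 to 25 for the difference. The lowest of the first 4 came without Jak2VF interferon replicate 4 and the highest without WT vehicle replicate 3. The other values of the first 4 counts stayed within 1.5 times. Several counts for the difference did not, such as 3 without WT interferon replicates 1 or 3 and 6 without WT interferon replicate 2. Several counts of list members moved further, under array weights, brightness as a covariate and the 8 interferon arrays alone among others. The sign turned in Ifi47 (0.093), Xbp1 (0.19) and Jak2 (0.27) under median centring, in Jak2 within slide 2 (0.031) and in Ear6 within slide 1 (0.0011), and the cause was not tested. Of the 124 named genes called, 97 kept the call without any 1 interferon array. The 8 interferon arrays alone and the filter on the interferon groups gave no value for the difference. No paired analysis was possible because the labels carry no replicate numbers. Signal near background limits genes detected in 1 group only, where a fold is a bound.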
